A study of Mus musculus with 12 samples.

Results

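A set of 9 genes for receptors of myeloid cytokines was followed in LSKs of Tespa1+/+ and Tespa1-/- mice: Csf1r, Csf2ra, Csf2rb, Csf2rb2, Csf3r, Il3ra, Il6ra, Il6st and Il1r1. The 9 genes were chosen by name, as receptor chains for M-CSF, GM-CSF, G-CSF, IL-3, IL-6 and IL-1, out of 53465 genes counted. Earlier results of these data were known when they were chosen. All 9 passed the filter on low counts in every comparison. LSKs are the lineage-negative, Sca-1-positive and c-Kit-positive BM cells that hold stem and multipotent progenitor cells. RNA-seq was done on 4 groups of 3 libraries: untreated Tespa1+/+ LSKs, untreated Tespa1-/- LSKs, and LSKs of each genotype at day 9 after a single injection of 150 mg/kg 5-FU, a drug that kills dividing cells and forces the BM to regenerate. The Tespa1+/+ mice were wild type littermates by the labels, and the study's methods give male mice of 8 to 10 weeks and a B6.129S-Tespa1tm1Smoc line crossed back to C57BL/6. No tissue-specific driver is named for the knockout, so the groups do not separate a change that starts in LSKs from one that starts elsewhere. The labels do not say whether the 3 libraries of a group came from separate mice, and p-values measure the spread between these libraries.

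On GRCm38, in the coordinates of the deposited table, Csf1r (ENSMUSG00000024621) lies on chromosome 18 from 61105572 to 61132149, and Csf3r (ENSMUSG00000028859) on chromosome 4 from 126024550 to 126044440. Csf2ra (ENSMUSG00000059326) lies on chromosome 19 from 61224402 to 61228418 and Il3ra (ENSMUSG00000068758) on chromosome 14 from 14346275 to 14356011. The beta chain genes are neighbours on chromosome 15, with Csf2rb (ENSMUSG00000071713) from 78325990 to 78351000 and Csf2rb2 (ENSMUSG00000071714) from 78282517 to 78305603. Il6ra (ENSMUSG00000027947) lies on chromosome 3 from 89864059 to 89913196, Il6st (ENSMUSG00000021756) on chromosome 13 from 112464070 to 112510086, and Il1r1 (ENSMUSG00000026072) on chromosome 1 from 40225080 to 40317257.

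Myeloid cytokines act on stem and progenitor cells through a small set of surface receptors. Csf1r is a receptor tyrosine kinase, while the receptors for GM-CSF and IL-3 each pair their own alpha chain (Csf2ra, Il3ra) with a signalling beta chain. Csf2rb is the common beta chain, and Csf2rb2 is a mouse paralog that serves IL-3 alone. Csf3r signals as a homodimer, Il6ra signals through the shared chain Il6st (gp130), and all of these except Csf1r lack kinase activity and rely on JAK kinases and STAT factors. Il1r1 belongs to another family and signals through Myd88 and IRAK kinases. In the marrow these receptors are known for driving neutrophil, monocyte and emergency myeloid output.

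The beta chain genes are close copies, and the longest run of bases they share is shown because reads inside it cannot be assigned to either gene. The coding sequences of transcripts Csf2rb-201 and Csf2rb2-201 in GENCODE M21 were 95.6% identical over 2623 aligned bases. The run of 242 bases lies in the coding part of exon 14 of both, at chr15:78348577-78348818 on the plus strand in Csf2rb and at chr15:78284630-78284871 on the minus strand in Csf2rb2. It reads, 5′ to 3′:
Csf2rb and Csf2rb2: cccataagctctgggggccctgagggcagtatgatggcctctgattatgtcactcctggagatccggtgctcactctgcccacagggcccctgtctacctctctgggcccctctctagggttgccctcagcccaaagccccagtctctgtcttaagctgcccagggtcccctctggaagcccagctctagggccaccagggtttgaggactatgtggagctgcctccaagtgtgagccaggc
Of all windows of 50 bases in Csf2rb2-201, 19.0% were also in Csf2rb-201, and the share was 7.20% for windows of 100 bases and 3.59% for windows of 150 bases. Most of the length therefore carries bases that separate the copies, but the read length and the treatment of reads with more than 1 match are not given in the sources used here. Values for each gene of the pair are uncertain for that reason.

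Promoters are shown for Csf2ra, Csf2rb2 and Il1r1, whose levels differed between groups, and for Csf3r, which had the highest level per length in 3 of the 4 groups. They are RefSeq sequences on GRCm38.p6 from 250 bases before to 50 bases after an annotated start, of which 7 of the 9 members had at least 1 (all but Csf1r and Csf2rb). Capitals mark matches, on either strand, to core motifs of 5 blood transcription factor families. The motif searched for PU.1 was GAGGAA. That for C/EBP was TTGCNNAA, and that for STAT factors was TTCNNNGAA. For RUNX factors it was TGTGGT. For GATA factors the letters were AGATAA. The windows are chr19:61228369-61228668 (minus strand), chr15:78305672-78305971 (minus strand), chr1:40224830-40225129 (plus strand) and chr4:126024409-126024708 (plus strand), in this order:
Csf2ra: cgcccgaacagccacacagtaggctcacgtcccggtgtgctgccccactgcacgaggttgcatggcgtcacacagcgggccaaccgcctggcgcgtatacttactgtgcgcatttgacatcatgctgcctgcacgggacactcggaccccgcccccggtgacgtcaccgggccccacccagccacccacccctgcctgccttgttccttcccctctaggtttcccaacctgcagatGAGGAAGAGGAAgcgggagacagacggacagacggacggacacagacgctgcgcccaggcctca
Csf2rb2: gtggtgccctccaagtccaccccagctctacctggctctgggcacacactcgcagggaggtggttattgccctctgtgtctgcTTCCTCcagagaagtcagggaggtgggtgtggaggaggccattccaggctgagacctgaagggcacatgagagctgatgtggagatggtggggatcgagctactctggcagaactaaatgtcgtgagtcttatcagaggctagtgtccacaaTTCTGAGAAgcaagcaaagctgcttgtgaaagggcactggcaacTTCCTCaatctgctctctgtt
Il1r1: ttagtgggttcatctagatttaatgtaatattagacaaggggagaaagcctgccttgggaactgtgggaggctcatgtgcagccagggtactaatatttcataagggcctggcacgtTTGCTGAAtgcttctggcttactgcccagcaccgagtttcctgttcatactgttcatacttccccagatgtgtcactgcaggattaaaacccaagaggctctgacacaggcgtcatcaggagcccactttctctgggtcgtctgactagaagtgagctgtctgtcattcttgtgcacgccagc
Csf3r: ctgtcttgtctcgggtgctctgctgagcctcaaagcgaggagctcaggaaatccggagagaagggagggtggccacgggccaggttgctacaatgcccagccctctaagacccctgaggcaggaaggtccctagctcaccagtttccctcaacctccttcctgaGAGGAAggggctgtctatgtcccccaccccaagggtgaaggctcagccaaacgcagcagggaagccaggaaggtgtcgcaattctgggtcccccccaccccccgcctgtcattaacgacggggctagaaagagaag
The Csf2ra window holds 2 copies of GAGGAA in tandem, starting 14 and 8 bases before the start (positions -14 and -8). In the Csf2rb2 window GAGGAA is found on the opposite strand, as TTCCTC, with first bases at -167 and 30, and TTCNNNGAA begins at -15. The Il1r1 window has 1 TTGCNNAA at -133, while the window of a second annotated Il1r1 start, at chr1:40266336-40266635, held no match to any of the 5 motifs, and that of Csf3r has 1 GAGGAA at -86. Among 32851 RefSeq promoter windows of the same length, 28.3% held GAGGAA, 10.8% TTGCNNAA and 8.30% TTCNNNGAA, so many promoters hold such matches. Il6st had no match to any of the 5 motifs. The matches describe the letters only.

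Every member was well counted, from 265 reads for Il3ra in the second untreated Tespa1-/- library to 3784 reads for Csf3r in the first untreated Tespa1+/+ library, with library totals of 22118154 to 28275079 counts. Tespa1 itself, the check of the labels, was at 17.2 to 20.7 CPM (counts scaled to library size with TMM factors) in Tespa1-/- LSKs after 5-FU against 47.1 to 57.2 CPM in Tespa1+/+. In untreated LSKs it was at 34.5 to 34.9 CPM against 43.1 to 51 CPM, so reads on the gene were reduced and not absent. Markers of other cells differed between the groups. The summed level of 14 later neutrophil genes was 37.3 to 49.1 CPM in Tespa1+/+ and 1152 to 1156 CPM in Tespa1-/- LSKs after 5-FU, and Camp, Fcnb, Cd177 and Retnlg had at most 3 counts in every library of the former group. For 10 genes of granulocyte-macrophage progenitors the range was 3661 to 3839 CPM against 6018 to 6269 CPM, and for 10 erythroid genes 243 to 268 CPM against 680 to 714 CPM. Smaller gaps were seen for monocyte and macrophage genes (268 to 284 against 361 to 386 CPM, with 1 of 9 called higher and 1 lower), mast cell and basophil genes (173 to 207 against 211 to 281 CPM) and B cell genes (287 to 297 against 325 to 343 CPM). The 10 LSK markers went the other way, from 1314 to 1368 CPM in Tespa1+/+ to 789 to 854 CPM in Tespa1-/-, with Ly6a, the gene of Sca-1, and Kit, the other gene of the sort, both lower (log2 fold changes -1.24 and -0.45) though Kit was at 327 CPM or more in every library. In bulk RNA, fewer cells of a type and less RNA per cell cannot be told apart.

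The length-scaled levels (FPKM) placed the G-CSF receptor first in 3 of the 4 groups. In untreated Tespa1+/+ LSKs the order of FPKM was Csf3r at 23.0 ± 1.12 (SD, n = 3), Csf2ra at 15.0 ± 0.32, Csf2rb at 11.4 ± 0.69, Csf1r at 10.4 ± 1.29, Il1r1 at 6.07 ± 0.63, Il6ra at 5.99 ± 0.66, Il6st at 4.43 ± 1.29, Il3ra at 3.54 ± 0.36 and Csf2rb2 at 2.56 ± 0.28. Neighbours in this order whose libraries overlapped were Csf2rb with Csf1r, Il1r1 with Il6ra, Il6ra with Il6st, and Il6st with Il3ra. Untreated Tespa1-/- LSKs kept Csf3r first at 22.2 ± 0.47 FPKM, followed by Csf1r, Csf2rb and Csf2ra between 13.9 and 14.6 FPKM, and these 3 overlapped from one to the next. After 5-FU, Tespa1+/+ LSKs had Csf3r at 22.9 ± 1.14 FPKM and, just under it without overlap, Csf2rb at 20.9 ± 0.76 FPKM. Tespa1-/- LSKs after 5-FU had another order. There Csf2ra at 28.4 ± 0.93 FPKM and Csf2rb at 27.3 ± 0.83 FPKM, the alpha and beta chain of the GM-CSF receptor, overlapped each other and both lay above Csf3r at 19.3 ± 1.06 FPKM. Il1r1 was the lowest of the 9 in that group, at 2.12 ± 0.11 FPKM, without overlap with Il3ra at 3.81 ± 0.63 FPKM. The FPKM divide by 1 length per gene, 1849 bases for Csf2ra and 17535 bases for Il6st, and the placing of genes with long alternative ends depends on that choice.

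**Figure D1:**
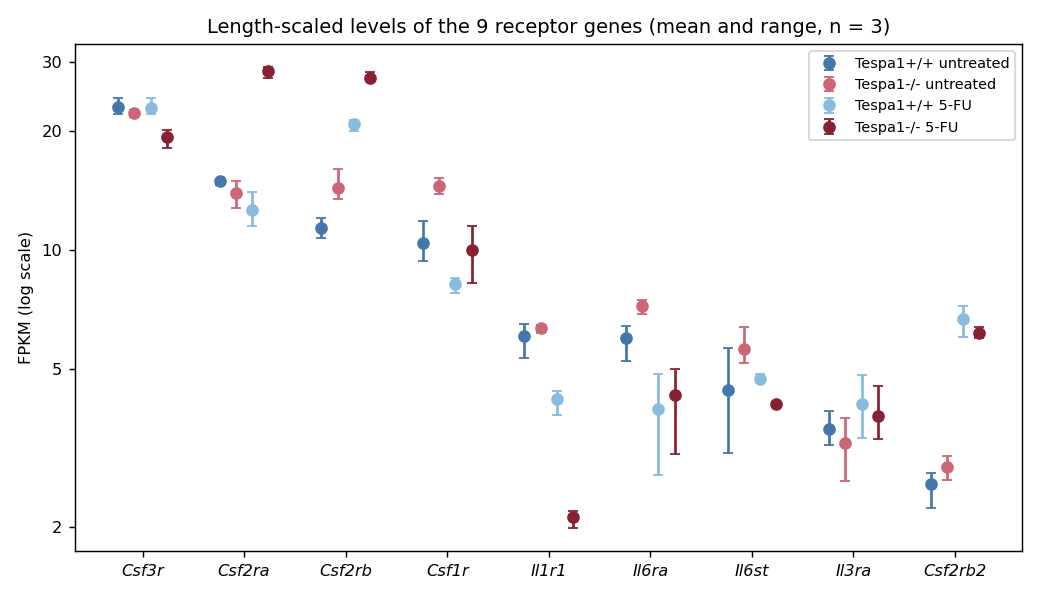
Length-scaled level (FPKM, log scale) of the 9 receptor genes in the 4 groups, ordered by the untreated Tespa1+/+ mean; points are means and bars span the lowest to the highest of 3 libraries. Csf2ra and Csf2rb stand above Csf3r in Tespa1-/- LSKs after 5-FU alone, where Il1r1 is lowest at 2.12 FPKM.

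The summed level of the 9 genes was 461 to 559 CPM in untreated Tespa1+/+ libraries, 567 to 577 CPM in untreated Tespa1-/-, 498 to 508 CPM in Tespa1+/+ after 5-FU and 493 to 550 CPM in Tespa1-/- after 5-FU. Untreated Tespa1-/- libraries thus lay above those of all other groups, which overlapped one another. The groups also differed in which receptors made up that sum.

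**Figure D2:**
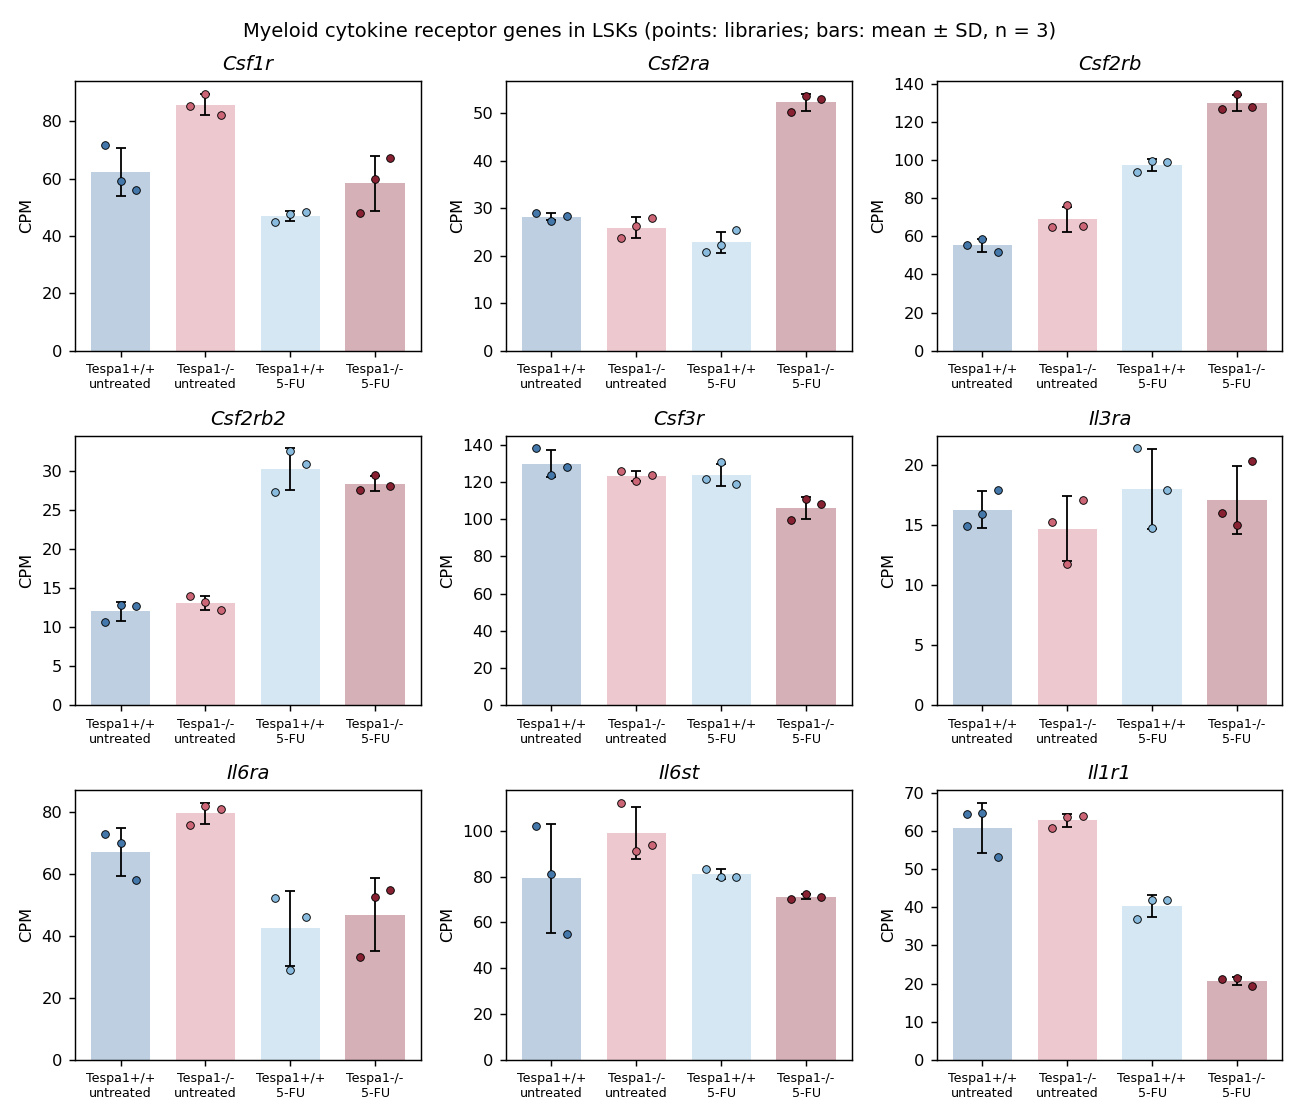
Level (CPM, TMM-scaled) of each receptor gene in every library; points are libraries, bars the mean and whiskers the SD of 3 libraries in each of 4 groups, with axes starting at 0. Csf2ra is high only in the 3 Tespa1-/- libraries after 5-FU (50.3 to 53.7 CPM) and Il1r1 is lowest there (19.4 to 21.5 CPM).

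The genotypes were first compared in untreated LSKs by the quasi-likelihood test of edgeR. The p-values were adjusted by Benjamini and Hochberg's method over every gene in the fit, with calls at an adjusted p below 0.05, as in all later comparisons. Errors of log2 fold changes are standard errors (SE). One receptor gene, Csf1r, was higher in Tespa1-/- LSKs and 0 were lower by edgeR, by DESeq2 or at an unadjusted p below 0.05. Of all 17055 genes tested, 1.64% were higher and 3.59% lower, and the median log2 fold change of the 9 members was 0.14 against 0.01 over all genes. Csf1r, the M-CSF receptor, gave 71.7, 59.1 and 56.0 CPM in the Tespa1+/+ libraries and 85.4, 89.6 and 82.4 CPM in the Tespa1-/- libraries. The groups did not overlap, and the log2 fold change was 0.48 (± 0.09 SE, adjusted p = 0.0251), a 1.39-fold difference. The difference lost its call in 5 of 6 leave-one-out fits (all but the fit without the first Tespa1+/+ library), with log2 fold changes of 0.41 to 0.58 and adjusted p up to 0.126. The annotated span of Csf1r overlaps that of Hmgxb3, on the opposite strand, over 873 bases, and the overlap of their exons was not measured. Hmgxb3 was at a mean of 55.1 CPM, and the use of strand in counting is not given in the sources used here. The summed level of 10 monocyte and macrophage genes was 219 to 250 CPM in untreated Tespa1+/+ and 321 to 360 CPM in untreated Tespa1-/- libraries. F13a1, at a mean of 105 against 207 CPM, was the 1 of 9 tested genes of that list called higher, and 1 was called lower (Cd14, log2 fold change -1.61), with a median of 0.16. The sum of the 10 granulocyte-macrophage progenitor genes was 3760 to 3898 against 4847 to 5002 CPM, with 5 called higher and 0 lower. Later neutrophil genes (21.4 to 34.9 against 37.2 to 39.2 CPM) and mast cell and basophil genes (84.0 to 93.8 against 98.6 to 122 CPM) were also higher in sum. The sums of the erythroid genes overlapped (149 to 172 against 163 to 174 CPM). Of 9 tested erythroid genes, 1 was called higher (Car1, log2 fold change 0.98) and 0 lower, with a median of 0.98. The sums of the LSK markers (1620 to 1678 against 1338 to 1371 CPM) and of the B cell genes (65.5 to 77.0 against 42.2 to 48.2 CPM) were lower. The part of these markers in the Csf1r result was not tested.

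Csf2rb and Csf2rb2, the beta chains, and Csf2ra did not pass the test in untreated LSKs. Csf2rb was at 55.5, 58.4 and 51.8 CPM in Tespa1+/+ and at 64.6, 76.5 and 65.2 CPM in Tespa1-/- libraries, without overlap. Its log2 fold change was 0.33 (± 0.09 SE, adjusted p = 0.0871), and it was called by DESeq2 (adjusted p = 0.0259) and by the fit of all 12 libraries (adjusted p = 0.0242). Il6ra had a log2 fold change of 0.26 (adjusted p = 0.163), also with no overlap between the groups. The 3 members without overlap, Csf1r, Csf2rb and Il6ra, are read against 25.5% of all genes tested. The other 6, Csf2ra, Csf2rb2, Csf3r, Il3ra, Il6st and Il1r1, had overlapping groups and log2 fold changes from -0.13 for Il3ra to 0.34 for Il6st, which had a wide spread in Tespa1+/+ libraries (102, 81.1 and 54.8 CPM).

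After 5-FU the genotypes differed in 3 of the 9 receptor genes, and these went in both directions. Csf2ra and Csf2rb, the alpha and beta chain of the GM-CSF receptor, were higher in Tespa1-/- LSKs, and Il1r1, the signalling receptor for IL-1, was lower. The background was 7.34% of 17239 genes higher and 5.78% lower, and the median log2 fold change was -0.07 over the members and -0.01 over all genes.

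Csf2ra binds GM-CSF and gives the receptor its specificity. It was at 20.9, 22.2 and 25.3 CPM in Tespa1+/+ libraries after 5-FU and at 50.3, 53.7 and 52.9 CPM in Tespa1-/- libraries. Each Tespa1-/- library lay far above each Tespa1+/+ library, and above all 6 untreated libraries, which ran from 23.7 to 28.9 CPM. The log2 fold change was 1.20 (± 0.11 SE, adjusted p = 1.6e-04), a 2.29-fold difference, and it passed the test in 6 of 6 fits that left out 1 library. This rise went with the summed marker levels given above, and 9 of the 10 granulocyte-macrophage progenitor genes passed the test as higher in the same comparison. Among these 9 was Cebpe, which passed the filter on low counts there only with Tespa1-/- libraries counted. No count of called genes is given for the later neutrophil list, since many of its genes passed the filter only through the Tespa1-/- libraries after 5-FU. The part of these markers in the Csf2ra result was not tested.

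Csf2rb carries the intracellular part that recruits JAK2. It was at 93.6, 99.5 and 98.7 CPM in Tespa1+/+ and at 127, 135 and 128 CPM in Tespa1-/- libraries after 5-FU. The groups did not overlap, and the log2 fold change was 0.42 (± 0.06 SE, adjusted p = 0.0024), a 1.33-fold difference that passed the test in 6 of 6 fits with 1 library left out. Its paralog Csf2rb2 was at 27.3, 32.5 and 30.9 CPM against 27.6, 29.5 and 28.1 CPM, and the groups overlapped (log2 fold change -0.09 ± 0.12 SE, adjusted p = 0.686). With the counts of the pair summed, the sum was higher in Tespa1-/- LSKs by a log2 fold change of 0.31 (adjusted p = 0.0102). The same marker lists moved with Csf2rb, and their part was not tested.

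Il1r1 was at 37.0, 41.9 and 42.0 CPM in Tespa1+/+ and at 21.2, 21.5 and 19.4 CPM in Tespa1-/- libraries after 5-FU. All 3 Tespa1-/- libraries were low and close together, and the groups did not overlap. The log2 fold change was -0.96 (± 0.11 SE, adjusted p = 6.7e-04), and it was called in 6 of 6 fits with 1 library left out. The LSK markers moved in the same direction, with 8 of the 10 lower in Tespa1-/- LSKs, and their part in the result was not tested.

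The remaining members after 5-FU were not called. Csf3r was at 122, 131 and 119 CPM against 99.4, 111 and 108 CPM, without overlap, with a log2 fold change of -0.22 (± 0.07 SE, adjusted p = 0.0705). It was called by DESeq2 (adjusted p = 0.0373), without TMM factors (0.0453) and in the fit of all 12 libraries (0.0333). Il6st, at 83.5, 79.7 and 80.0 CPM against 70.4, 72.5 and 71.0 CPM, was also without overlap, and its log2 fold change was -0.19 (adjusted p = 0.118). In all, 5 members had groups that did not overlap, beside 33.1% of all genes tested. Csf1r had a log2 fold change of 0.31 (adjusted p = 0.141), which was called without the first Tespa1-/- library (adjusted p = 0.0397), and Il6ra of 0.14 (adjusted p = 0.762). Il3ra, at 14.7 to 21.4 CPM in all 6 libraries, had a log2 fold change of -0.07 (adjusted p = 0.852).

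**Figure D3:**
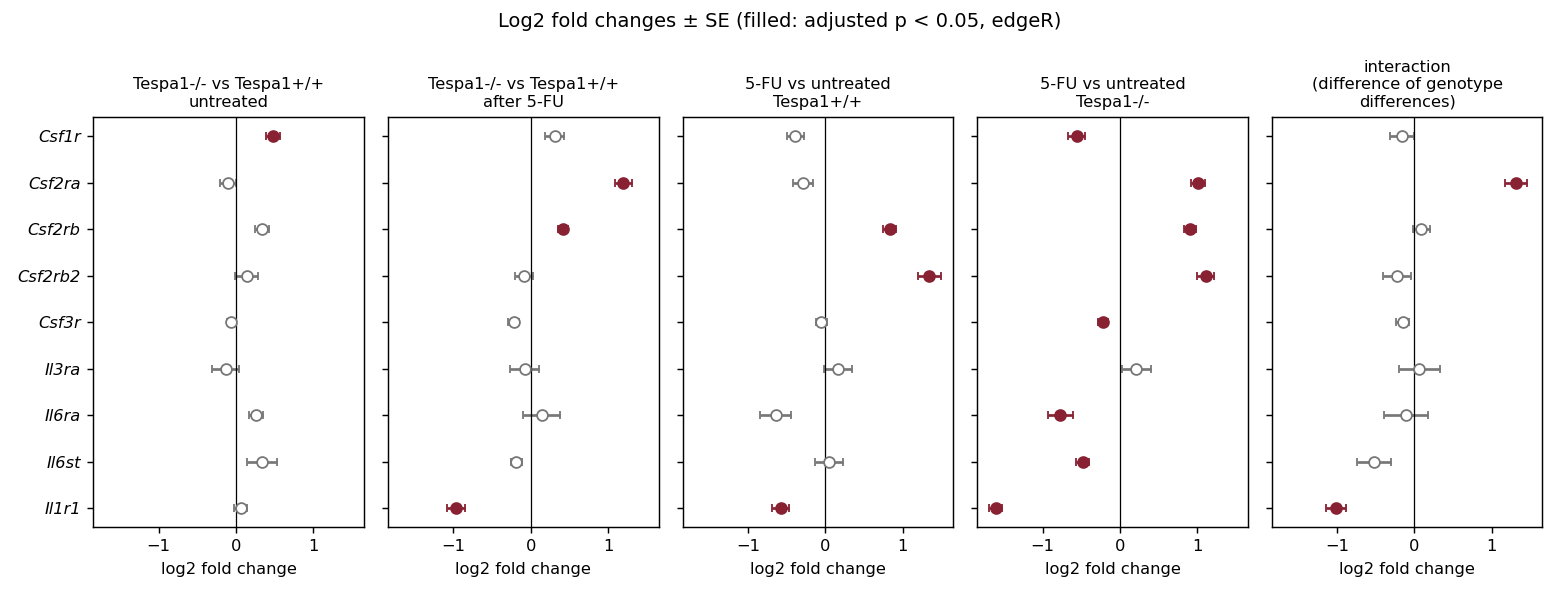
Log2 fold change of each receptor gene in the 5 comparisons; whiskers are the standard error of the edgeR fit, and filled points have an adjusted p below 0.05. Csf2ra is at 1.20 and Il1r1 at -0.96 in the genotype comparison after 5-FU, and both are filled in the interaction, at 1.31 and -1.01.

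The response to 5-FU was then read within each genotype. These comparisons share libraries with the comparisons of genotypes, so that their values are given side by side. Markers of other cells also differed between untreated and 5-FU libraries of Tespa1+/+ mice. Summed B cell genes were at 65.5 to 77.0 CPM untreated and 287 to 297 CPM after 5-FU, mast cell and basophil genes at 84.0 to 93.8 against 173 to 207 CPM, and erythroid genes at 149 to 172 against 243 to 268 CPM. A smaller gap was seen for later neutrophil genes (21.4 to 34.9 against 37.3 to 49.1 CPM). For other lists the sum, which a few abundant genes set, and the single genes differed. The monocyte and macrophage sum was higher (219 to 250 against 268 to 284 CPM), with 2 of 9 genes called higher, 0 lower and a median log2 fold change of -0.18. The granulocyte-macrophage progenitor sum overlapped (3760 to 3898 against 3661 to 3839 CPM), with the abundant Mpo at -0.08, but 5 of 10 genes were called higher and 0 lower, with a median of 0.46. The LSK sum was lower (1620 to 1678 against 1314 to 1368 CPM), with Flt3 at -0.96 and Cd34 at -0.57, while 2 of 10 genes were called higher and 2 lower, with a median of 0.37. Their part in these results was not tested. In Tespa1+/+ LSKs both beta chains were higher at day 9 after 5-FU and Il1r1 was lower, beside 3.77% of 17002 genes higher and 4.18% lower. Csf2rb2 rose from 10.6, 12.8 and 12.7 CPM to the levels given above, a log2 fold change of 1.34 (± 0.15 SE, adjusted p = 8.3e-04) or 2.54-fold. Csf2rb had a log2 fold change of 0.83 (± 0.08 SE, adjusted p = 3.9e-04). Il1r1 fell from 64.6, 64.7 and 53.3 CPM, with a log2 fold change of -0.58 (± 0.11 SE, adjusted p = 0.0123), and this call was lost without the second untreated library (adjusted p = 0.0545) or the first 5-FU library (adjusted p = 0.0574). Csf2ra, Csf1r and Il6ra were each lower in every library after 5-FU but were not called, with log2 fold changes of -0.29 (adjusted p = 0.230), -0.39 (adjusted p = 0.0606) and -0.64 (adjusted p = 0.0843). The share of all genes without overlap between the groups was 28.7%, and 6 of the 9 members were among them. DESeq2 called Csf1r (adjusted p = 0.0176) and Il6ra (adjusted p = 0.0086).

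At adjusted p below 0.05, in Tespa1-/- LSKs 8 of the 9 receptor genes passed the test after 5-FU, with 3 higher and 5 lower, beside 10.7% of 17228 genes higher and 8.64% lower. The 3 higher ones were the GM-CSF and IL-3 chains Csf2ra (log2 fold change 1.01 ± 0.09 SE, adjusted p = 1e-04), Csf2rb (0.91, 0.08, 7.3e-05) and Csf2rb2 (1.11, 0.11, 2.6e-04). The 5 lower ones were Il1r1, Il6ra, Csf1r, Il6st and Csf3r. Il1r1 fell from 60.7, 63.6 and 64.1 CPM, a log2 fold change of -1.60 (± 0.08 SE, adjusted p = 4e-06) or 3.04-fold. Il6ra fell from 75.7, 82.1 and 80.9 CPM to 33.3, 52.6 and 54.7 CPM (log2 fold change -0.77, adjusted p = 0.0112), and its signalling partner Il6st from 112, 91.3 and 94.0 CPM (log2 fold change -0.48, adjusted p = 0.0045, but 0.0611 in the fit of all 12 libraries). Csf1r fell to 48.1, 59.8 and 67.2 CPM, a log2 fold change of -0.56 (adjusted p = 0.0087). Csf3r fell least (log2 fold change -0.22, adjusted p = 0.0318), and its call was lost in 5 of 6 fits with 1 library left out, all but that without the second 5-FU library, with adjusted p up to 0.113, and also without the filter on low counts (0.0668). All 8 also had groups that did not overlap, beside 38.6% of all genes. Il3ra was the exception, with a log2 fold change of 0.21 (adjusted p = 0.474). Markers of other cells differed in the same comparison. The later neutrophil sum was 37.2 to 39.2 CPM in untreated and 1152 to 1156 CPM in 5-FU libraries of Tespa1-/- mice, and the granulocyte-macrophage progenitor sum 4847 to 5002 against 6018 to 6269 CPM. The monocyte and macrophage sum was 321 to 360 against 361 to 386 CPM. Of 9 tested genes of that list, 2 were called higher and 1 lower, with a median log2 fold change of 0.04. Erythroid genes were at 163 to 174 against 680 to 714 CPM, mast cell and basophil genes at 98.6 to 122 against 211 to 281 CPM, and B cell genes at 42.2 to 48.2 against 325 to 343 CPM. The LSK sum was lower after 5-FU, at 789 to 854 CPM against 1338 to 1371 CPM, with Flt3 at a log2 fold change of -1.55 and Cd34 at -1.08, but 3 of the 10 markers were called higher and 3 lower, with a median of -0.22. Their part in the 8 results was not tested.

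Whether the genotypes differed in their response to 5-FU was tested by the interaction over all 12 libraries, where 3.02% of 18696 genes were higher and 1.99% lower. Csf2ra had an interaction of 1.31 on the log2 scale (± 0.14 SE, adjusted p = 1.4e-04), since it was lower in Tespa1+/+ and higher in Tespa1-/- libraries after 5-FU. Il1r1 had an interaction of -1.01 (± 0.13 SE, adjusted p = 6.5e-04), since the fall was deeper in Tespa1-/- LSKs. Both were called in 12 of 12 fits that left out 1 library. In the same test 5 of the 10 granulocyte-macrophage progenitor genes were higher and 3 of the 10 LSK markers were lower, and the sums of the later neutrophil and erythroid genes were high in the Tespa1-/- libraries after 5-FU, as given above. Their part in the results of Csf2ra and Il1r1 was not tested. The other 7 were not called, among them Csf2rb (0.09, adjusted p = 0.733), Csf2rb2 (-0.22, adjusted p = 0.564) and Il6st (-0.52, adjusted p = 0.221, and 0.0429 without the first untreated Tespa1+/+ library). With 1 library left out, the interaction of Il6st ran from -0.73 to -0.31, with adjusted p up to 0.418.

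At the study's thresholds, which ask for a 1.5-fold change and an unadjusted P below 0.05, the member counts were read against other shares of all genes. In untreated LSKs 0 members were higher and 0 lower between the genotypes by edgeR, beside 3.54% and 3.2% of genes, and 3 members had an unadjusted P below 0.05. After 5-FU, 1 was higher (Csf2ra) and 1 lower (Il1r1), beside 5.79% and 5.94%. In Tespa1+/+ LSKs, 2 were higher after 5-FU (Csf2rb and Csf2rb2) and 1 was lower (Il6ra), beside 6.33% and 3.54%. In Tespa1-/- LSKs, 3 were higher (Csf2ra, Csf2rb and Csf2rb2) and 2 lower (Il1r1 and Il6ra), beside 7.78% and 6.58%. The interaction had 1 higher and 1 lower, again Csf2ra and Il1r1, beside 4.16% and 6.22%.

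The division of reads within the beta chain pair was measured as the share of Csf2rb2 in the summed FPKM of both genes. In untreated Tespa1+/+ libraries the share was 16.5, 18.5 and 20.2%, and in untreated Tespa1-/- libraries 18.2, 15.1 and 16.2%. After 5-FU it was 23.1, 25.2 and 24.4% in Tespa1+/+ and 18.3, 18.5 and 18.5% in Tespa1-/- libraries. Tespa1+/+ libraries after 5-FU were the highest and did not overlap any other group. The difference between the genotypes after 5-FU was -5.83 percentage points and that between 5-FU and untreated Tespa1+/+ LSKs was 5.88 points, each with p = 0.1 in a two-sided exact permutation test, the smallest p that 3 libraries against 3 allow. In Tespa1-/- LSKs the share after 5-FU was 1.91 points above that of untreated libraries, also without overlap and at the same smallest p of 0.1. The genotype difference in untreated LSKs was -1.86 points (exact permutation p = 0.2). Since the paralogs share the run of bases printed above, the shares hold for the reads as the authors assigned them.

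**Figure D4:**
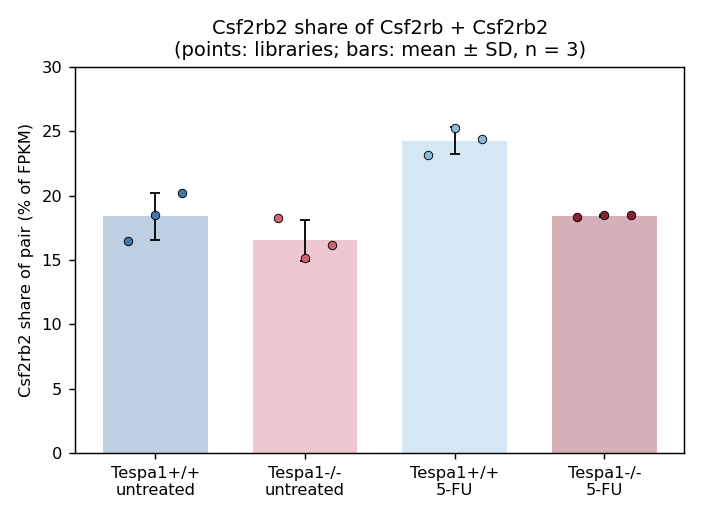
Share of Csf2rb2 in the summed FPKM of Csf2rb and Csf2rb2 (percent); points are libraries, bars the mean and whiskers the SD of 3 libraries. Tespa1+/+ libraries after 5-FU lie at 23.1 to 25.2%, above the libraries of the other 3 groups (15.1 to 20.2%).

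The ligands of these receptors were scarcely counted in LSKs. Of 10 ligand genes, only Csf1 passed the filter on low counts in untreated LSKs. Csf1 was at 9.31 ± 1.2 CPM (SD, n = 3) in untreated Tespa1+/+ and 14.6 ± 2.8 CPM in Tespa1-/- LSKs after 5-FU, and was not called for either genotype comparison. Il1b, Il6 and Il1rn passed the filter only through the Tespa1-/- libraries after 5-FU, so their counts are given without a test, and they were named after their values were seen. In 5-FU libraries, Il1b had 0, 2 and 0 counts in Tespa1+/+ and 63, 51 and 31 counts in Tespa1-/- libraries, and Il6 had 10, 0 and 1 against 79, 62 and 33 counts. Il1rn, the IL-1 receptor antagonist, had 0, 3 and 0 against 14, 19 and 11 counts. Csf3 had 0 counts in all 12 libraries, where 3 counts in a library were taken as the limit of detection, for counting error only.

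Partner chains and decoys differed between the genotypes in untreated LSKs in 2 of 7 tested genes, and in 0 of 7 after 5-FU by edgeR or DESeq2, with 1 at an unadjusted p below 0.05. This list and the ones that follow are read against 1.64% of all genes higher and 3.59% lower in untreated Tespa1-/- LSKs, and the part of the cell markers given above in their results was not tested. Il1r2, the decoy receptor that binds IL-1 without signalling, was at 11.7 ± 3.8 CPM in untreated Tespa1+/+ and 3.19 ± 0.39 CPM in untreated Tespa1-/- LSKs (log2 fold change -1.86, adjusted p = 0.0066). After 5-FU its genotype difference had the other sign and was not called (log2 fold change 0.73, adjusted p = 0.132). Its interaction was 2.59 on the log2 scale (adjusted p = 0.0015). Lifr, which pairs with gp130 to bind LIF, was at 5.13 ± 1.2 against 12.9 ± 4.5 CPM (log2 fold change 1.35, adjusted p = 0.0339). Il1rap, the accessory chain that Il1r1 needs to signal, was at 12.8 to 14.0 CPM on average in all 4 groups.

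Of 20 genes of JAK-STAT and adaptor signalling, 0 were higher by edgeR or DESeq2 (1 at an unadjusted p below 0.05) and 2 lower in untreated Tespa1-/- LSKs, and 2 were higher and 2 lower after 5-FU, near the shares of all genes called after 5-FU (7.34% higher and 5.78% lower). The adaptor Shc1 was among the higher genes after 5-FU (log2 fold change 0.45). Among the lower ones were the kinases Jak1 in untreated LSKs (-0.23) and Jak3 after 5-FU (-0.45). The median of the list was -0.07 untreated and -0.03 after 5-FU.

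The feedback targets of JAK-STAT signalling, genes such as Socs3 that cytokines induce and that restrain or carry the response, had 3 of 9 lower in untreated Tespa1-/- LSKs, and 0 of 9 higher by edgeR, by DESeq2 or at an unadjusted p below 0.05. Socs3, an inhibitor that binds gp130 and Csf3r, had 203 ± 13 CPM in wild type against 101 ± 1.5 CPM in knockout LSKs (log2 fold change -0.99). Osm had a log2 fold change of -0.64 and the kinase Pim1 of -0.57. After 5-FU, Socs3 was lower at 111 ± 3.9 against 74.8 ± 1.3 CPM (log2 fold change -0.57), and Cish, an inhibitor of STAT5 signalling, was higher (log2 fold change 0.59, adjusted p = 0.034). Among 10 genes of IL-1 receptor signalling, 1 passed the test in untreated LSKs, Irak2 (log2 fold change -0.83), and 0 did after 5-FU by edgeR, by DESeq2 or at an unadjusted p below 0.05.

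Of 20 other cytokine receptors of stem and progenitor cells, 3 were higher and 4 lower in Tespa1-/- LSKs after 5-FU, beside 7.34% and 5.78% of all genes. The higher ones were Epor, the erythropoietin receptor (5.94 ± 0.72 against 15.9 ± 0.39 CPM, log2 fold change 1.42), Il1rl1, the IL-33 receptor (log2 fold change 1.35), and Ifngr1 (0.27). Among the lower ones were Flt3, the receptor of early progenitors (313 ± 9.4 against 169 ± 6.7 CPM, log2 fold change -0.89), and the common gamma chain Il2rg (-0.49). In untreated LSKs 1 of 19 was higher, Il1rl1 (log2 fold change 2.02), and 2 were lower, Il2rg (-0.53) and Flt3 (-0.30).

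The 10 transcription factors known to act on myeloid receptor genes included 4 that were higher and 1 that was lower in Tespa1-/- LSKs after 5-FU, beside the same 7.34% and 5.78% of all genes. Among the 4 was Cebpe, a factor of granule maturation, at 0, 33 and 13 counts in Tespa1+/+ against 342, 256 and 255 counts in Tespa1-/- libraries. Its log2 fold change was 4.21, with 1 Tespa1+/+ library at 0. In this comparison Cebpe passed the filter on low counts only with Tespa1-/- libraries counted, so its counts are read and not its call. Gfi1 had a log2 fold change of 1.27 and Cebpd of 0.73, and Runx1 was lower at -0.34. Cebpe also counts among the 10 granulocyte-macrophage progenitor markers. In untreated LSKs Cebpa was higher (log2 fold change 0.38), and Cebpb and Klf4 were lower (-1.03 and -0.82). Spi1, which encodes PU.1, was at 80.1 to 92.3 CPM on average in the 4 groups.

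**Figure D5:**
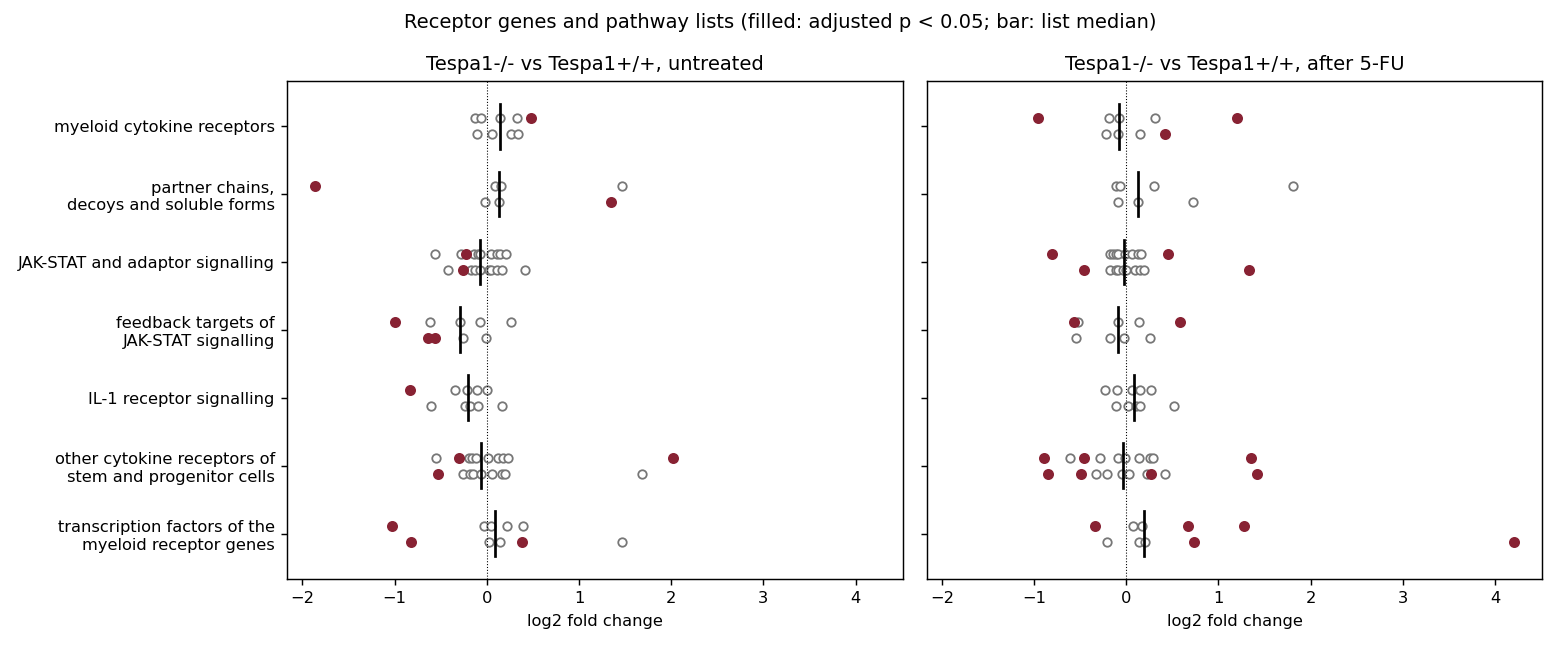
Log2 fold change between the genotypes, untreated and after 5-FU, for each tested gene of the 9 receptors and 6 related lists; filled points have an adjusted p below 0.05 (edgeR) and the bar is the median of the list. Calls in both directions are seen among the receptors after 5-FU, with Csf2ra at 1.20 and Il1r1 at -0.96. The farthest point is Cebpe at 4.21, which passed the filter on low counts there only with Tespa1-/- libraries counted.

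The genes whose levels followed each receptor most closely were found by Pearson's r of log2(CPM + 1) over the 12 libraries among 14934 genes with a mean of at least 1 CPM, as a description in which groups and library depth are shared. Csf2ra was followed by Tmsb4x (r = 0.98), the actin-binding thymosin, and by Lyz2 (r = 0.97), the lysozyme of granulocytes and macrophages, whose mean after 5-FU was 54.0 CPM for Tespa1+/+ against 161 CPM for Tespa1-/-. The closest genes to Csf2rb were Arap3 and Myo7a (both r = 0.99), to Csf2rb2 Col27a1 and Cd9 (both r = 0.98), and to Il1r1 Gm10709 and Parp8 (both r = 0.98). For Csf3r they were Gm43302 (r = 0.96) and Vdr (r = 0.95), and for Csf1r Nxpe1-ps (r = 0.95) and Sf3b3 (r = 0.93). Lower values were found for Il6ra (Jpt1 at 0.94), Il3ra (Napg at 0.92 and Cyren at 0.85) and Il6st (Fam174a at 0.91 and Eef1g at 0.90). Among the members themselves, Csf2rb and Csf2rb2 were most alike (r = 0.90), Csf1r and Il6ra came next (r = 0.82), and Csf2rb and Il1r1 were most opposed (r = -0.91).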

How the data were processed

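RNA-seq of poly-A RNA from LSKs was used, from 12 libraries in 4 groups of 3 taken from the labels. The authors deposited counts of reads per gene, without normalization, and FPKM values that follow from those counts, 1 length for each gene and the total of the library. FPKM was used only to compare levels between genes. The submitters' processing notes name CASAVA 1.8, HISAT2, StringTie, edgeR and GRCm38 with no roles. The counting tool, its use of strand and the read length are not given in the sources used here. The kit was stranded and paired-end.

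Tests used edgeR 4.0.16 in R 4.3.3 on the counts (filterByExpr with a minimum count of 10, TMM factors, glmQLFit and glmQLFTest) on the 6 libraries of each comparison, or on 12 for the interaction, with Benjamini-Hochberg adjustment over every gene in the fit. The scripts were tested on simulated data. CPM values are scaled by TMM factors of all 12 libraries. Remaining steps ran in Python 3.11 with SciPy 1.17.1, Biopython 1.88, pandas 2.3.3, NumPy 2.4.6 and matplotlib 3.10.9. Sequences came from RefSeq (GRCm38.p6) and GENCODE M21. Csf2rb had no promoter entry matched, and promoter windows on chromosome 18, which holds Csf1r, were left out.

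The members and lists were chosen with earlier results of these data known. Genes named are the 9 members, Tespa1, from each of 7 pathway lists up to 3 called genes in each direction of largest absolute log2 fold change and at least 1 CPM on average in each genotype comparison, and for each member the 2 genes most alike. Markers, ligands, Il1rap and Spi1 were named from the lists beyond this rule. Some genes that this rule names are not reported here. Alternatives were DESeq2 1.42.0, size factors by RLE, unscaled library totals, no low-count filter, a minimum of 10 counts in each library, one fit of all 12 libraries, the replicate block, each library left out, the study's thresholds (fold change above 1.5, unadjusted P below 0.05), an adjusted p with that fold change, and the summed beta chain pair.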

Additional observations from a re-analysis of the deposited data

Results flagged for a closer look

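The genotype difference of 2 receptor genes was not the same in untreated LSKs and after 5-FU, by edgeR's test of the interaction over 12 libraries. For Csf2ra the interaction was 1.31 on the log2 scale (adjusted p = 1.4e-04), from a log2 fold change of -0.11 in untreated LSKs to 1.20 after 5-FU. For Il1r1 it was -1.01 (adjusted p = 6.5e-04), from 0.06 to -0.96. The groups of 3 libraries were too small to test single libraries as outliers.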

How the results depend on the processing

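Over the alternatives other than leaving out 1 library, Csf2ra and Il1r1 kept their direction and call after 5-FU (log2 fold changes 1.17 to 1.21 and -0.99 to -0.95) and in the interaction (1.27 to 1.32 and -1.06 to -1.01). Csf2rb after 5-FU stayed within 0.31 and 0.42 and fell short only of the 1.5-fold threshold. The share of Csf2rb2 kept its direction in every comparison when taken from counts or with 1 library left out. Leaving out 1 library gave -2.81 to -0.97 points between the untreated genotypes and 1.22 to 2.77 points for 5-FU in Tespa1-/- LSKs. With the pair summed, Csf2rb2 took the value of the sum and changed sign, to 0.31 after 5-FU and to 0.018 in the interaction. With 1 library left out, log2 fold changes that were not called crossed 0 for Il3ra (-0.26 to 0.0055) and Il1r1 (-0.03 to 0.11) in untreated LSKs, Il3ra (-0.21 to 0.07) and Il6ra (-0.07 to 0.34) between the genotypes after 5-FU, Il6st in Tespa1+/+ (-0.15 to 0.26), and Il3ra (-0.09 to 0.19) and Il6ra (-0.34 to 0.07) in the interaction. The number of receptor genes called higher in untreated Tespa1-/- LSKs was 1, and it was 2 with DESeq2 or all 12 libraries in one fit, 0 at the study's thresholds, 0 with an adjusted p and a 1.5-fold change, and 0 to 1 with 1 library left out. After 5-FU, 2 genes were higher, and 1 under either rule with the fold threshold; 1 was lower, and 2 with DESeq2, without TMM or with all 12 libraries. In Tespa1+/+ LSKs, 2 rose after 5-FU, and 1 with the pair counted as a single gene; 1 fell, and 3 did with DESeq2, 2 with all 12 libraries, 0 with an adjusted p and a 1.5-fold change, and 0 to 1 with 1 library left out. In Tespa1-/- LSKs 5 fell, 2 did under either rule with the fold threshold, and 4 to 5 did with 1 library left out. Csf3r lost its call there without the filter on low counts (adjusted p = 0.0668), and Il6st with all 12 libraries in one fit (adjusted p = 0.0611). The interaction had 1 lower gene, and 1 to 2 with 1 library left out. The replicate numbers did not pair the libraries (correlations of same-numbered deviations from -0.07 to 0.03), and with the replicate block the call of Csf1r in untreated LSKs was lost (0 genes called, adjusted p = 0.0508), as was that of Csf3r after 5-FU in Tespa1-/- (adjusted p = 0.0661). With 3 libraries a group, an exact permutation test cannot go below p = 0.1.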
